A study of Danio rerio with 16 samples.

Results

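Any injection into the yolk was compared with none in zebrafish embryos taken 1 day post injection (1 dpi), which is 3 days post fertilization (3 dpf). The comparison holds 8 of the 16 libraries of the series and pools 2 mock and 3 particle libraries (5 injected) against 3 libraries of non-injected embryos. All embryos were wildtype and came to 10 per treatment group. Particle embryos had received at 2 dpf 1 nl of a suspension of red fluorescent polystyrene beads at 5 mg/ml in polyvinylpyrrolidone (PVP), mock embryos PVP alone, and control embryos no injection. The labels give the beads' diameter as 700 nm, but the header for the particle C library reads 70, so the bead size in that library is uncertain. The labels give biological replicates A, B and C for control and particle embryos, and A and B for mock embryos, and levels are listed in this order throughout. A non-injected group differs from the injected groups in both puncture and PVP, so that these cannot be told apart, and the labels name no embryos that were punctured without PVP. The whole embryo was extracted, so fewer cells of a type and less RNA per cell cannot be told apart in any value below.

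The yolk of a zebrafish embryo is enclosed by the yolk syncytial layer, a multinucleate tissue that packs yolk lipid into lipoproteins with apolipoprotein B and the microsomal triglyceride transfer protein and passes it to the blood. A needle that enters the yolk crosses the skin and this layer, and wounds in zebrafish larvae are known to draw neutrophils and macrophages and to switch on prostaglandin, cytokine and matrix genes. Over the same days the liver, intestine and exocrine pancreas of the embryo begin to make their own products, so genes of plasma proteins and of digestion climb with age in untreated embryos.

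Total counts at 1 dpi ran from 9112785 to 19101682 per library. Headers name a common series for the A and B libraries and call the C libraries combined. Here C was handled as a second library series, although no header says so outright. The C libraries stood apart from the rest. On the first principal component, which carried 60.9% of the variance, control C lay at 104 and particle C at 71.2, and the others between -55.5 and 6.96. Genes of phototransduction, the light response of the eye, summed to 1053 CPM (counts scaled to library size) in control C and 3140 in particle C against 9072 to 12257 in the other 6 libraries, and mitochondrial transcripts took 2.89% and 2.85% of counts against 3.84% to 4.43%. No mock library belongs to the C series. Some list medians and some genes are therefore given also with a term for library series, within the A and B libraries or between the C libraries. The plot of list medians shows every list within the A and B libraries and between the C libraries. The part of library series in each result was otherwise not tested. Markers of muscle, blood, lens and neurons were present in every library, while the hatching gland gene he1.1 stood between 0 and 1.03 CPM.

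How many genes were called depended on the tool and the model. By edgeR's quasi-likelihood test with Benjamini-Hochberg adjustment, 0 of 22603 genes (0%) passed an adjusted p of 0.05, and the smallest adjusted p was 0.563. At an unadjusted p under 0.05 stood 1221 genes (5.4%), 937 of them higher (4.15%) and 284 lower (1.26%) in injected embryos. With limma-voom 0 genes passed, with 977 at an unadjusted p under 0.05. DESeq2 called 48 genes higher and 2 lower, 0.24% of those to which it gave an adjusted p. Among its calls were CD68, gpnmb, VGF, elovl1a, gale, scpp5, mtp, apoa1a, tfa, f2, c9 and edem1, all described below. All 5 injected libraries lay above all 3 control libraries for 425 genes (1.88%) and below them for 347 (1.54%). Within each library series the injected libraries lay above the controls for 1881 genes (8.32%) and below for 1673 (7.4%). Whether any of these shares exceeds what random labels would give was not tested. Arms that do not overlap therefore only describe the levels of a gene below, and are no test of it. The adjusted p of each gene named below was 0.815 or above in this test, apart from 0.563 for the clone-named genes si:dkey-221j11.3, si:dkey-247k7.2 and si:dkeyp-1h4.6, so that the levels, log2 values and standard errors (SE) that follow describe these libraries and no gene is called. Positive log2 values are higher after injection.

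A term for library series left 3 genes past the threshold, all higher (0.0133%), with 3343 genes at an unadjusted p under 0.05, and these 3 were all among the 391 that DESeq2 called with the same term. They carry only clone names, so they are given as the tables list them, and they were chosen after their values were seen. For si:dkey-221j11.3 (ENSDARG00000093304, chromosome 13) the levels were 4.64, 4.28 and 4.77 CPM in control, 11.8 and 9.36 in mock and 10.4, 11.4 and 14.3 in particle libraries. Every injected library lay above every control, and the log2 value was 1.36 (SE 0.14) with the term (adjusted p = 0.0333, edgeR quasi-likelihood, between 7.19e-08 and 0.985 over all alternatives). The largest of the 3 in level, si:dkey-247k7.2 (ENSDARG00000103199, chromosome 16), stood at 15.2, 14.8 and 7.36 CPM in control, 53.3 and 57.6 in mock and 42.1, 36.2 and 40.5 in particle libraries, again with no overlap, and at a log2 value of 1.88 (SE 0.2) with the term (edgeR adjusted p = 0.0333, between 9.59e-18 and 0.985 over all alternatives). The last of them, si:dkeyp-116a7.2 (ENSDARG00000097137, chromosome 19), was low in both C libraries, with 6.797, 7.35 and 1.2996 CPM in control, 18.96 and 17.03 in mock and 14.4, 17.3 and 2.93 in particle libraries. Its arms overlapped because of particle C, and its log2 value was 1.49 (SE 0.67) without the term and 1.24 (SE 0.14) with it (edgeR adjusted p = 0.0333, between 7.01e-07 and 0.985 over all alternatives). The A and B libraries alone gave 0 of 22666 genes (0%) past the threshold with edgeR, with 3383 at an unadjusted p under 0.05. Without mock B the term left only si:dkeyp-1h4.6 past the threshold, and without particle B it left 188 genes higher and 26 lower, so that count rests on single libraries.

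The lysosome genes CD68 and gpnmb were among those with the smallest unadjusted p. CD68 (ENSDARG00000055504, chromosome 7), the lysosomal membrane glycoprotein used as a macrophage marker in mammals, stood at 14.01, 8.77 and 6.23 CPM in control, 30.5 and 26.96 in mock and 32.3, 23.3 and 20.6 in particle libraries. The lowest injected library lay above the highest control, and the log2 value was 1.47 (SE 0.27), 1.58 for mock and 1.4 for particle embryos against the shared controls. The gene gpnmb (ENSDARG00000062688, chromosome 19), which codes for a glycoprotein of lysosomes and melanosomes, stood at 39.5, 47.5 and 46.2 CPM in control, 79.1 and 76.5 in mock and 67.2, 66.8 and 61.9 in particle libraries. These groups did not overlap either, with a log2 value of 0.66 (SE 0.12), which was 0.74 in the A and B libraries and 0.42 between the C libraries. Of 43 lysosome genes tested, a list added after values were seen, 5 were higher and 1 lower at an unadjusted p under 0.05 (4.15% and 1.26% of all genes). CD68 and gpnmb are among these 5, so the count was in part set by the choice of list and is no support. Within each library series 15 of the 43 were higher (8.32% of all genes). The median log2 value was 0.21 against -0.01 over all genes, and 0.12 between the C libraries. Besides these, tcirg1b, a subunit of the proton pump that acidifies lysosomes, had a log2 value of 0.47 (SE 0.13), fuca1.1, a fucosidase, 0.69 (SE 0.22), and ctsh, a cathepsin protease, 0.67 (SE 0.29). The exception was hexa, a subunit of a lysosomal hexosaminidase, with -0.38 (SE 0.16).

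Other genes with a small unadjusted p had varied roles. VGF (ENSDARG00000086665, chromosome 10) stood at 11.4, 9.98 and 9.69 CPM in control, 24.7 and 23.2 in mock and 22.02, 18.4 and 16.4 in particle libraries, a log2 value of 1.01 (SE 0.17) with no overlap; the gene name table calls this ID si:dkey-175g6.2, so no role is given to it. The elongase gene elovl1a, whose enzyme lengthens saturated fatty acids, stood at 5.97, 4.28 and 3.41 CPM in control, 15.99 and 9.36 in mock and 11.5, 9.08 and 9.09 in particle libraries. Mock A was the highest and the groups did not overlap, with a log2 value of 1.28 (SE 0.27). For gale, the epimerase that turns UDP-glucose and UDP-galactose into each other, the levels were 7.87, 6.58 and 7.91 CPM in control, 13.9 and 13.5 in mock and 13.7, 10.4 and 12.03 in particle libraries and the log2 value was 0.76 (SE 0.15), also with no overlap. The secreted mineral matrix gene scpp5 was counted 0, 1 and 0 times in control A, B and C, 44 and 37 times in mock A and B and 81, 22 and 9 times in particle A, B and C. Its counts came to 193 in injected and 1 in control libraries, a ratio of 109 with a 95% interval from 19.3 to 4316 that covers counting error only. Log2 values of the others were 2.73 (SE 0.51) for plekhs1, a pleckstrin homology protein, 1.14 (SE 0.23) for stx11b.1, a syntaxin of vesicle fusion, and 1.59 (SE 0.33) for nox1, the catalytic subunit of an NADPH oxidase. They were 0.76 (SE 0.16) for rnaseka, a ribonuclease, and 1.64 (SE 0.37) for ponzr2, with arms that did not overlap in each of the 5.

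**Figure D1:**
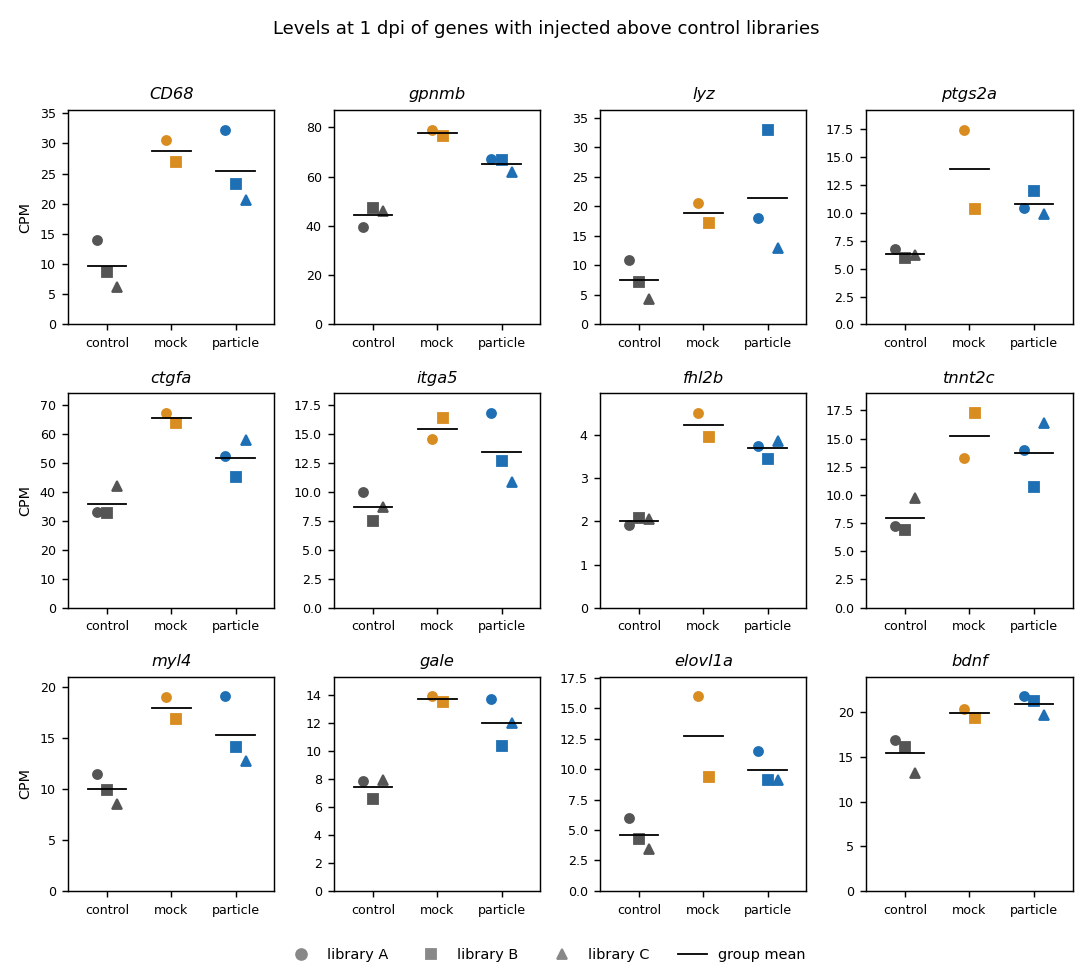
Levels in CPM (vertical axes, from 0) of 12 genes chosen with injected above control libraries, in control, mock and particle embryos at 1 dpi. Each library has a symbol (circle A, square B, triangle C) and each group mean a bar. In CD68 the injected libraries sit between 20.6 and 32.3 CPM, all above the controls.

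The plot of CPM by library holds 12 genes chosen with injected above control libraries, so that their arms stay apart by choice. Means were 9.67 CPM in control and 26.7 in injected libraries for CD68, with a smaller distance, relative to control, in bdnf. With a term for library series the log2 values were 1.41 for CD68, 1.23 for elovl1a, 0.76 for gale, 0.89 for ptgs2a, 1.36 for lyz, 0.65 for itga5 and 0.95 for fhl2b, and edgeR called none of these. Mock libraries tend to be the highest in gpnmb and ctgfa, and particle B in lyz.

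Inflammatory genes showed this pattern only in part. The inducible cyclooxygenase gene ptgs2a, which makes prostaglandins at wounds, stood at 6.71, 5.92 and 6.23 CPM in control, 17.4 and 10.3 in mock and 10.4, 11.96 and 9.86 in particle libraries. Mock A was far above the other injected libraries, which still all lay above the controls, and the log2 value was 0.93 (SE 0.22). The cytokine gene tgfb1a stood at 9.53, 8.44 and 9.69 CPM in control, 15.5 and 12.995 in mock and 15.5, 12.2 and 11.97 in particle libraries, a log2 value of 0.56 (SE 0.15) without overlap. For irg1l, a relative of the gene for the enzyme that makes itaconate in macrophages, the levels were 3.56, 4.39 and 3.14 CPM in control, 18.3 and 11.9 in mock and 5.45, 8.14 and 98.9 in particle libraries, so that the log2 value of 2.97 (SE 1.03) rests largely on particle C and was 1.46 in the A and B libraries. Of 20 inflammatory cytokine and chemokine genes tested 4 were higher at an unadjusted p under 0.05, against 4.15% of all genes. In 3 of the 20 the arms did not overlap, against 1.88% of all genes, and the median log2 value was 0.36. The classic acute genes did not stand apart. The interleukin gene il1b lay between 0.746 and 1.999 CPM over the 8 libraries with a log2 value of 0.5 (SE 0.35), and the gelatinase gene mmp9 had 0.06 (SE 0.3).

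Among neutrophil genes, lyz, the lysozyme of neutrophils and some macrophages, stood at 10.9, 7.24 and 4.28 CPM in control, 20.5 and 17.1 in mock and 18.04, 32.9 and 12.97 in particle libraries. The lowest injected value, in particle C, lay above the highest control, and the log2 value was 1.45 (SE 0.37). The granule proteoglycan gene srgn stood at 5.803, 4.06 and 6.17 CPM in control, 8.66 and 7.59 in mock and 8.99, 11.5 and 7.86 in particle libraries, a log2 value of 0.73 (SE 0.21), and cyba, a subunit of the phagocyte oxidase, had 0.7 (SE 0.3) with overlap. Myeloperoxidase, mpx, had 1.02 (SE 0.55) with overlap, since control A at 6.96 CPM was above mock B and particle A and C. Of 14 neutrophil markers 3 were higher at an unadjusted p under 0.05, against 4.15% of all genes, and 2 did not overlap, against 1.88%. The median of the list was 0.60, and 0.20 between the C libraries, while its summed level was 318 to 380 CPM in control and 304 to 379 in injected libraries. Of 22 macrophage markers 2 did so on both counts, the cathepsin gene ctssb.2 with 1.92 (SE 0.5) and the transcription factor gene spi1a with 0.65 (SE 0.25), and the median was 0.25. Median log2 values of the macrophage list were 0.53 for mock and 0.01 for particle embryos. Mock embryos have no C library, so these medians differ in library series as well as in group. The summed level of this list was 112 CPM in control C and 133 in particle C, and 225 to 327 in the other libraries. The macrophage gene mpeg1.1 lay between 1.46 and 4.68 CPM with a log2 value of 0.46 (SE 0.34). The macrophage genes mfap4 and marco lay between 7.29 and 10.4 CPM and between 1.41 and 3.75 CPM. Injected and control libraries overlapped in each of these genes.

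Wound repair and matrix genes gave 12 of 37 tested at an unadjusted p under 0.05, all higher, against 4.15% of all genes. In 5 of them the arms did not overlap, against 1.88% of all genes, and 33 of 37 lay above 0, against 10917 of 22603 over all genes. The median log2 value was 0.51 and was 0.31 between the C libraries. Connective tissue growth factor a, ctgfa, a secreted matrix protein of the CCN family, stood at 33.2, 32.8 and 42.02 CPM in control, 67.3 and 63.7 in mock and 52.4, 45.3 and 57.9 in particle libraries. Mock embryos held the most, no group of injected embryos overlapped the controls, and the log2 value was 0.67 (SE 0.16). Its paralog ctgfb had 1.05 (SE 0.29) and the family member cyr61 0.63 (SE 0.19). The fibronectin receptor subunit gene itga5 stood at 9.95, 7.46 and 8.66 CPM in control, 14.5 and 16.4 in mock and 16.8, 12.6 and 10.8 in particle libraries, a log2 value of 0.71 (SE 0.19), and timp2b, an inhibitor of matrix metalloproteinases, had 0.58 (SE 0.18), both without overlap. Fibronectin itself, fn1b, had 1.71 (SE 0.61) with overlap, because particle C at 13.8 CPM lay under control A and B. Of 34 epidermis and keratin genes 6 were higher at an unadjusted p under 0.05 and 0 had arms that did not overlap, against 4.15% and 1.88% of all genes. Their median was 0.42 and was 0.01 between the C libraries. Collagen and bone genes had a median of 0.30, with 4 of 31 higher at an unadjusted p under 0.05, against 4.15% of all genes. Among them were acana, which codes for the cartilage proteoglycan aggrecan, with 0.85 (SE 0.26), and runx3, a skeletal transcription factor, with 0.58 (SE 0.2). The genes ctgfa, itga5, ctgfb, acana and runx3 are named for being among the 3 smallest unadjusted p of their lists in this same comparison. All other genes of this paragraph were chosen after their values were seen.

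Genes of the heart chambers, a list added after values were seen, gave 14 of 27 at an unadjusted p under 0.05, all higher, against 4.15% of all genes. The list holds fhl2b, whose unadjusted p was among the 12 smallest, so its counts were in part set by the choice of list. In 4 of the 27 the arms did not overlap, against 1.88% of all genes, and the median log2 value was 0.95. The LIM-domain gene fhl2b, expressed in heart muscle, stood at 1.91, 2.08 and 2.06 CPM in control, 4.52 and 3.96 in mock and 3.76, 3.46 and 3.87 in particle libraries, which left a clear gap between the arms and a log2 value of 0.95 (SE 0.19). Troponin T gene tnnt2c stood at 7.21, 6.91 and 9.75 CPM in control, 13.3 and 17.3 in mock and 13.99, 10.7 and 16.4 in particle libraries, a log2 value of 0.84 (SE 0.2). The atrial light chain gene myl4 stood at 11.4, 9.87 and 8.501 CPM in control, 18.96 and 16.8 in mock and 19.1, 14.1 and 12.7 in particle libraries, a log2 value of 0.72 (SE 0.18), again with no overlap. Larger log2 values belonged to genes near the detection limit in controls. Phospholamban, pln, which restrains the calcium pump of heart muscle, stood at 0.414, 0.329 and 0.325 CPM in control, 2.52 and 2.83 in mock and 4.86, 0.721 and 0.821 in particle libraries, and the log2 value was 2.69 (SE 0.73). For the light chain gene myl7 the levels were 0.912, 0.219 and 0.379 CPM in control, 5.33 and 6.296 in mock and 13.7, 1.66 and 0.821 in particle libraries, with particle A far above the rest and particle C below control A, and the log2 value was 3.42 (SE 0.99). The natriuretic peptide gene nppa had 3.01 (SE 0.9), and the transcription factor genes gata6 and gata5 had 3.06 (SE 1.02) and 2.16 (SE 0.74), with overlap in each of the 3. Both GATA factors also act in endoderm. In the C libraries the median of the heart list was 0.33.

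The lists with the highest median log2 values were the secreted proteins of the liver and the exocrine pancreas. Of 31 carrier and acute phase genes of the liver, 22 were higher at an unadjusted p under 0.05, against 4.15% of all genes. Log2 values of 29 lay above 0, against 10917 of 22603 over all genes. The median log2 value was 2.44, at 3.18 for mock and 1.64 for particle embryos. Mock embryos have no C library, and the median was 2.42 in the A and B libraries and 0.35 between the C libraries. Only 1 of the 31, vtna, had arms that did not overlap, against 1.88% of all genes, but 19 were higher within each library series, against 8.32% of all genes. Transferrin, tfa (ENSDARG00000016771, chromosome 2), stood at 7.71, 3.95 and 2.06 CPM in control, 62.9 and 114 in mock and 119, 29.4 and 6.102 in particle libraries. Particle C lay under control A, and the log2 value was 3.87 (SE 0.97), 3.76 in the A and B libraries and 1.5 between the C libraries. The liver fatty acid binding protein gene fabp10a stood at 6.2999, 0.548 and 0.217 CPM in control, 39.4 and 52.1 in mock and 30.8, 3.53 and 0.997 in particle libraries, a log2 value of 3.44 (SE 1.42), with overlap because of particle B and C. The summed level of the list ran from 170 to 721 CPM in controls, was 2147 and 2114 in mock A and B and 1952, 1105 and 253 in particle A, B and C.

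Yolk lipid export and lipid droplet genes, of which 42 were tested, had 16 higher at an unadjusted p under 0.05, against 4.15% of all genes. Their median was 0.38, and 0.13 between the C libraries. In 2 of the 42 the arms did not overlap, against 1.88% of all genes. These were mtp, the transfer protein that loads lipid onto apolipoprotein B, and dgat2, an acyltransferase of triglyceride synthesis. For mtp (ENSDARG00000008637, chromosome 1) the levels were 1.24, 0.768 and 1.25 CPM in control, 12.6 and 16.1 in mock and 26.7, 3.39 and 1.99 in particle libraries. Particle A held the most and particle C came closest to the controls, and the log2 value was 3.44 (SE 0.89), 2.88 with the series term and 0.62 between the C libraries. Apolipoprotein B, apobb.1 (ENSDARG00000022767, chromosome 20), stood at 11.5, 3.73 and 3.899 CPM in control, 118 and 73.4 in mock and 89.998, 47.997 and 4.64 in particle libraries, with 4 injected libraries far above the controls and particle C within their range, and a log2 value of 3.39 (SE 0.92). Apolipoprotein A-I, apoa1a, the main protein of high-density lipoprotein, stood at 20.3, 7.02 and 13.3 CPM in control, 169 and 94.7 in mock and 76.4, 91.96 and 15.5 in particle libraries, a log2 value of 2.72 (SE 0.69). For apoa4b.1 the levels were 5.47, 1.54 and 1.2996 CPM in control, 60.3 and 45.8 in mock and 77.8, 16.4 and 2.699 in particle libraries and the log2 value was 3.88 (SE 1.06). The lipid droplet coat gene plin2 differed, with 7.46, 8.55 and 22.9 CPM in control, 2.89 and 3.96 in mock and 12.96, 14.6 and 18.4 in particle libraries, so that both mock libraries lay under the controls and the particle libraries between control B and control C, and its log2 value was -0.31 (SE 0.62).

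**Figure D2:**
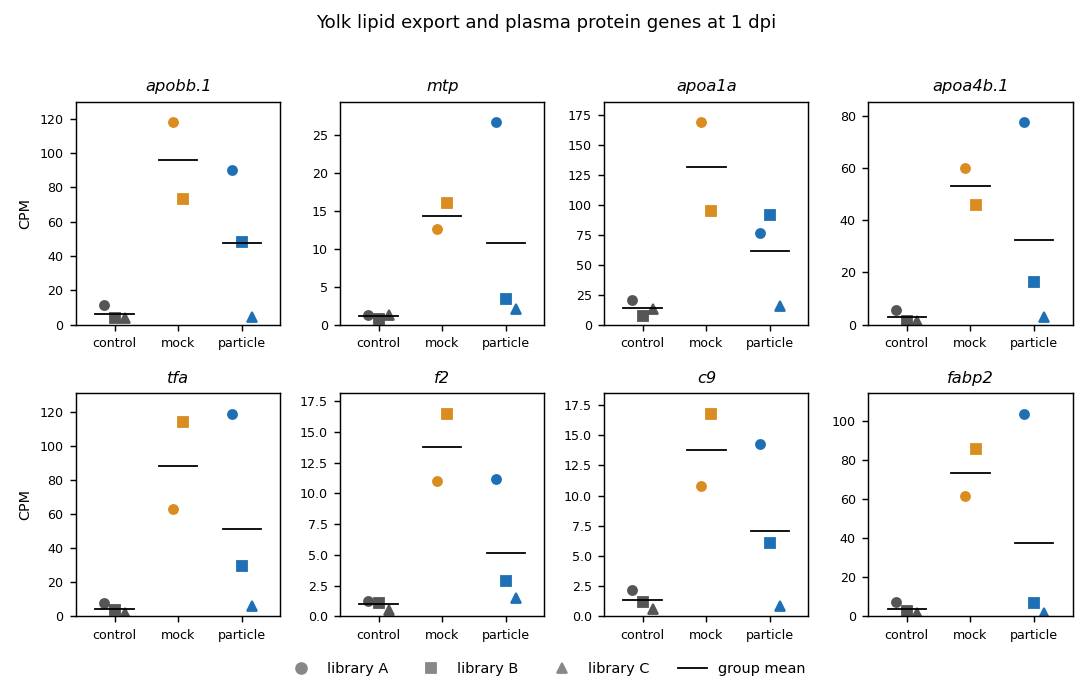
Levels in CPM (vertical axes, from 0) of 8 genes of lipoproteins, plasma and intestine at 1 dpi, by library (circle A, square B, triangle C), with group means as bars. Mock A and B and particle A stand highest apart from apoa1a, where particle B is above particle A, and particle C lies within or close to the control range, as in apobb.1 at 4.64 CPM.

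In the plot of these 8 genes particle C lies near the controls throughout, and particle B lies under both mock libraries and particle A except in apoa1a, where it is above particle A. The complement cascade, plasma proteins that tag and lyse microbes, had 14 of 26 members higher at an unadjusted p under 0.05, against 4.15% of all genes. Its median was 1.36, but -0.05 between the C libraries. Its terminal component c9 stood at 2.16, 1.21 and 0.596 CPM in control, 10.8 and 16.8 in mock and 14.3, 6.05 and 0.8801 in particle libraries, a log2 value of 2.91 (SE 0.87), and factor B, cfb, had 2.71 (SE 1.00), both with overlap, while c3a.1 had 1.41 (SE 0.65). The only member of the 26 without overlap, against 1.88% of all genes, was si:dkey-8k3.2, with 1.89 (SE 0.46). Coagulation and fibrinolysis genes had 10 of 23 higher at an unadjusted p under 0.05, against 4.15% of all genes. Their median was 1.1, with 0.74 under the series term and 0.18 between the C libraries. Prothrombin, f2, stood at 1.24, 1.097 and 0.541 CPM in control, 11.03 and 16.5 in mock and 11.12, 2.88 and 1.53 in particle libraries, which left no overlap, and had a log2 value of 3.19 (SE 0.84). The fibrinogen chain gene fgg had 3.36 (SE 0.91) with overlap, and serpinf2b, the inhibitor of plasmin, 2.91 (SE 0.85). Intestinal genes had 10 of 26 higher at an unadjusted p under 0.05, against 4.15% of all genes. Their median was 1.21, with 0.07 between the C libraries. The peptide carrier gene slc15a1a stood at 0.912, 1.32 and 0.921 CPM in control, 2.295 and 2.02 in mock and 2.21, 1.73 and 1.53 in particle libraries. It was the only 1 of the 26 without overlap, against 1.88% of all genes, and had a log2 value of 0.91 (SE 0.27). The enterocyte fatty acid binding protein gene fabp2 stood at 7.21, 2.85 and 1.46 CPM in control, 61.5 and 85.8 in mock and 104, 6.77 and 1.76 in particle libraries, a log2 value of 3.77 (SE 1.3), with particle B and C in the control range. Of 19 exocrine pancreas genes 0 were past an unadjusted p of 0.05 by edgeR, against 5.4% of all genes, although their median was 2.27. Their summed level was 36 to 100 CPM in controls, 347 and 174 in mock A and B, 439 in particle A and 39.2 and 44.3 in particle B and C.

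**Figure D3:**
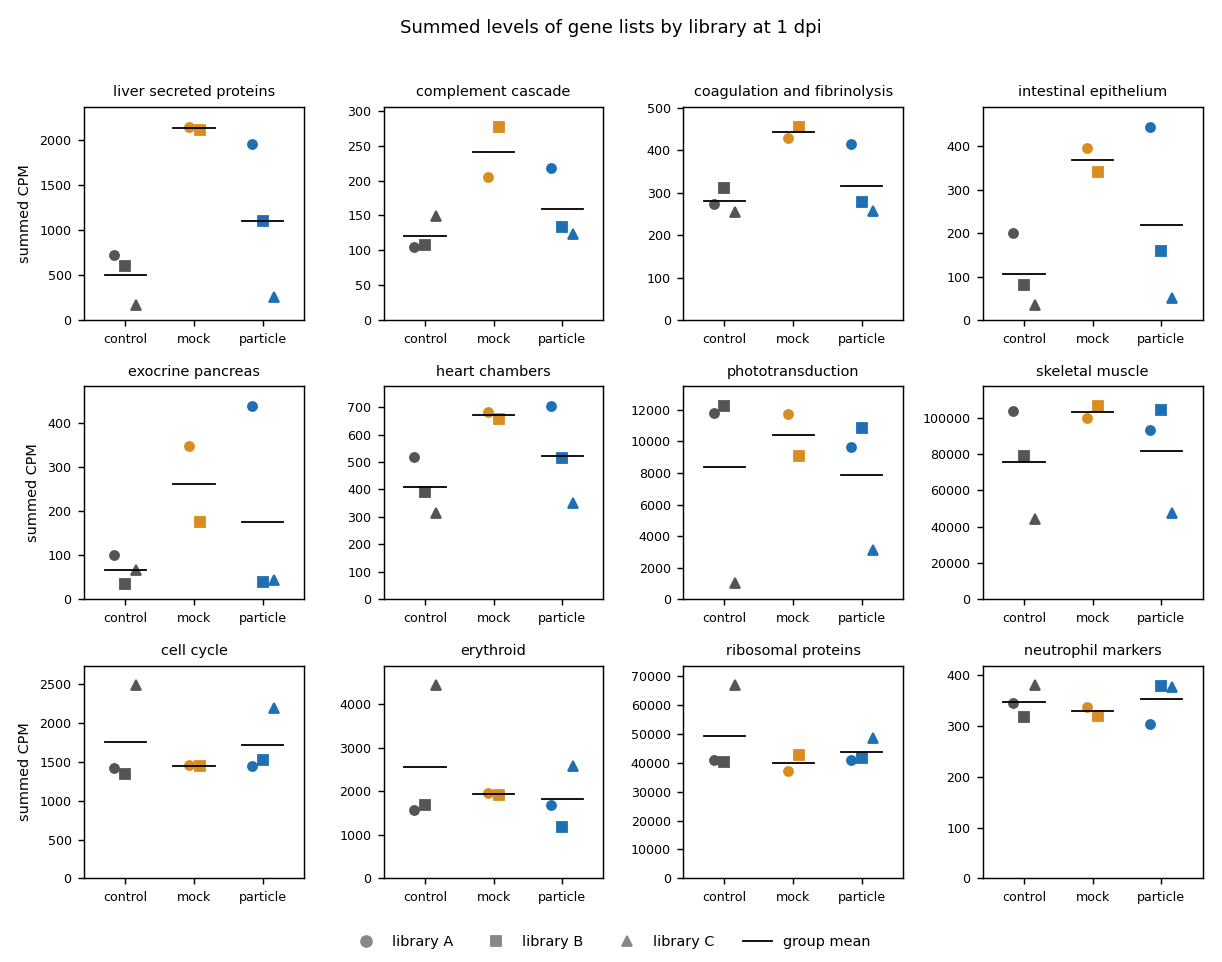
Summed CPM (vertical axes, from 0) of 12 gene lists in each library at 1 dpi, with symbols for library A, B and C and bars for group means. Liver secreted proteins reach 2147 CPM in mock A and 253 in particle C, and phototransduction stands at 1053 and 3140 in the C libraries.

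The lists of organs that begin to work at this age also differed between control embryos of both times, so that stage moves with them. Control embryos at 3 dpi stood above control embryos at 1 dpi by a median log2 value of 2.46 for the liver list, 3.80 for exocrine pancreas, 2.34 for intestine and 1.01 for complement, against 0.14 for wound repair, 0.31 for heart chambers and 0.20 for lysosome. This value was 0.97 for coagulation and 0.80 for yolk lipid export. It was also 0.87 for the circadian clock and 0.60 for phototransduction, lists with medians of only -0.07 and 0.05 for injected minus control at 1 dpi. Over all genes edgeR called 238 of 23307 (1.02%) between these control groups, 212 higher and 26 lower at 3 dpi. Whether injected and control embryos had reached the same stage was not tested. In the plot of summed levels, skeletal muscle, cell cycle, erythroid and ribosomal protein genes separate the C libraries from the others more than the arms from each other.

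**Figure D4:**
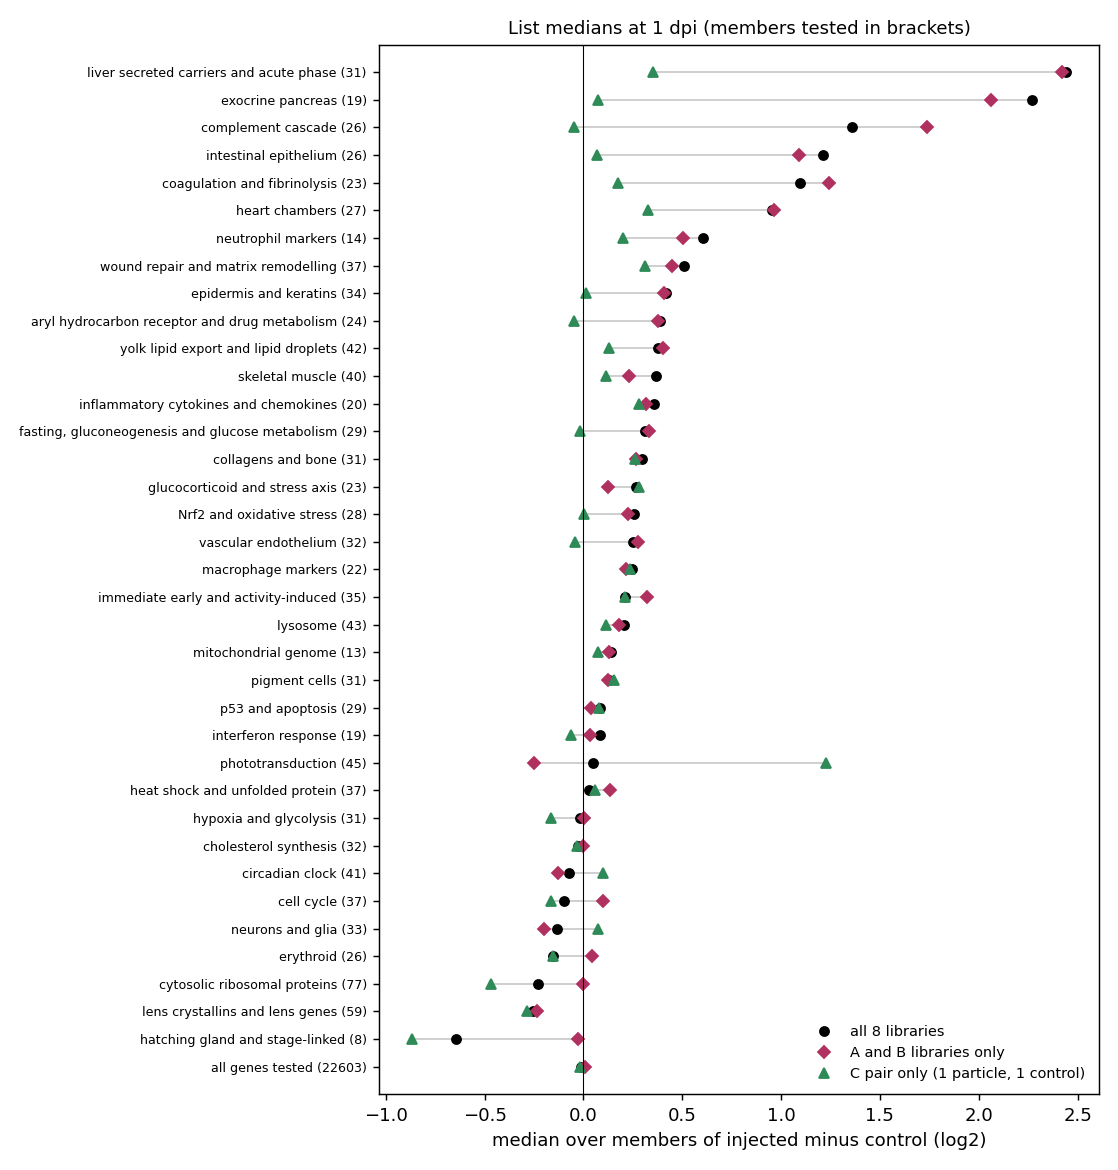
Median log2 value of injected minus control (horizontal axis) over the tested members of 36 gene lists and over all genes at 1 dpi. Circles use all 8 libraries, diamonds the A and B libraries and triangles particle C minus control C. The liver list goes from 2.44 to 0.35 between circle and triangle, and wound repair from 0.51 to 0.31.

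The medians of the other lists ran from -0.64 to 0.39, and only some lay near the median of all genes, as the plot of list medians shows. Medians were -0.02 for hypoxia and glycolysis, 0.03 for heat shock and unfolded protein, 0.08 for p53 and apoptosis, 0.08 for interferon response, -0.03 for cholesterol synthesis, -0.10 for cell cycle and -0.07 for the circadian clock. Medians of 0.26 for Nrf2 and oxidative stress, 0.31 for fasting and glucose metabolism and 0.39 for drug metabolism were 0.01, -0.02 and -0.05 between the C libraries. The stress axis list had 0.27, and in it hsd11b2, the enzyme that inactivates cortisol, stood at 17.2, 11.07 and 11.3 CPM in control, 18.7 and 23.7 in mock and 26.2, 19.9 and 21.9 in particle libraries, a log2 value of 0.74 (SE 0.19) without overlap. In the unfolded protein response edem1, which sends misfolded glycoproteins to degradation, stood at 23.1, 22.1 and 23.1 CPM in control, 31.9 and 33.7 in mock and 31.5, 29.8 and 28.5 in particle libraries, a small but separate difference of 0.45 (SE 0.1), and the chaperone gene calr3b had 0.3 (SE 0.11). Cytosolic ribosomal protein genes had a median of -0.23, but about 0 in the A and B libraries alone. Over all 8 libraries 0 of 77 lay above 0, against 10917 of 22603 over all genes. Lens genes had -0.26, at -0.80 for mock and 0.03 for particle embryos, with 5 of 59 above 0. Mock embryos have no C library, and the lens list had -0.23 in the A and B libraries and -0.28 between the C libraries. The list of hatching gland and other stage-linked genes had -0.64, and -0.03 in the A and B libraries. Only 8 of its 20 entries were tested. Among these 8 were the globin genes hbbe2 and hbz, while the hatching gland gene he1.1 was too low to be tested. The median therefore does not describe the hatching gland. Skeletal muscle had 0.37, with 38 of 40 members above 0. Its median was 0.23 in the A and B libraries and 0.11 between the C libraries. Phototransduction had 0.05, at -0.25 in the A and B libraries and 1.23 between the C libraries. Medians were -0.13 for neurons and glia, 0.25 for vascular endothelium, -0.15 for erythroid genes, 0.13 for pigment cells and 0.14 for the mitochondrial genome.

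Genes lower after injection are named here for their small unadjusted p or separate arms, and were chosen after their values were seen. The fukutin gene fktn (ENSDARG00000059437, chromosome 5), whose product helps to add sugars to dystroglycan, stood at 31.002, 27.96 and 31.03 CPM in control, 20.2 and 14.6 in mock and 19.4, 13.98 and 21.7 in particle libraries. All injected libraries lay under all controls, and the log2 value was -0.74 (SE 0.17); it was 1 of the 2 genes DESeq2 called lower. The guanine exchange factor gene arhgef3l stood at 6.2999, 4.496 and 8.61 CPM in control, 3.11 and 2.74 in mock and 2.95, 4.11 and 3.403 in particle libraries, a log2 value of -0.99 (SE 0.24). For ccm2l, related to a gene of vascular integrity, the levels were 7.96, 7.57 and 7.53 CPM in control, 4.29 and 5.17 in mock and 5.82, 5.12 and 4.28 in particle libraries and the log2 value was -0.64 (SE 0.16). Smaller separate differences were -0.4 (SE 0.1) for the kinesin gene kif16ba, -0.38 (SE 0.1) for the kinase gene pak7, -0.51 (SE 0.15) for the homeobox gene hoxb10a and -0.31 (SE 0.11) for csnk1e, a kinase that acts on clock proteins. The synaptic gene snap25a lay between 345 and 412 CPM, with all injected libraries under all controls and a log2 value of -0.16 (SE 0.1). Globin genes hbbe2 and hbz had -1.06 (SE 0.39) and -1.08 (SE 0.4), but control C at 94.1 and 101 CPM set these values, which were -0.34 and -0.33 in the A and B libraries.

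Mock and particle embryos were also fitted as separate groups, which share the control libraries. By edgeR 0 of 22603 genes (0%) passed for mock against control, with 2040 at an unadjusted p under 0.05, and DESeq2 called 67 higher and 5 lower. For particle against control 0 passed (0%), with 481, and DESeq2 called 8 higher. No mock library is of the C series, so the counts for mock and particle differ in library series as well as in injection. In fits added after these counts were seen, a term for library series gave 3643 for mock and 2142 for particle. Leaving out particle C gave 1425 for particle, again at an unadjusted edgeR p under 0.05. Particle against mock, the test of the difference between both injected groups, gave 0 (0%) with 542, and DESeq2 called npas4a and EGR4 higher. These are transcription factor genes that neurons induce when active. For npas4a (ENSDARG00000055752, chromosome 14) the levels were 3.65, 2.52 and 4.93 CPM in control, 5.41 and 5.49 in mock and 22.4, 23.5 and 16.1 in particle libraries. All injected libraries lay above all controls, but the mock libraries by little, and the log2 value was 1.95 (SE 0.58) over both injected groups and 1.92 for particle minus mock. EGR4 stood at 3.65, 3.399 and 5.63 CPM in control, 1.85 and 2.502 in mock and 8.17, 11.4 and 9.68 in particle libraries, with every mock library under and every particle library above the controls. The growth factor gene bdnf, which neuronal activity also induces, had close levels in both groups, at 16.9, 16.1 and 13.2 CPM in control, 20.4 and 19.4 in mock and 21.8, 21.3 and 19.7 in particle libraries, a log2 value of 0.41 (SE 0.12). Of 35 immediate early and activity-induced genes 6 were higher at an unadjusted p under 0.05 and 2 did not overlap, against 4.15% and 1.88% of all genes. The median was 0.21, and the member egr1 had 0.76 (SE 0.31) with overlap. Of the leading genes, particle minus mock was -0.18 for CD68, -0.25 for gpnmb, -0.34 for ctgfa, -0.2 for fhl2b and -0.19 for gale, each with an unadjusted edgeR p above 0.05, which does not show that they act alike.

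At 3 dpi the same contrast of 5 injected and 3 control libraries gave 0 of 23307 genes (0%) with edgeR, with 330 at an unadjusted p under 0.05, and DESeq2 also called 0. The change of the difference from 1 to 3 dpi was called for 0 genes (0%), with 480 at an unadjusted p under 0.05, and for 0 by DESeq2. Levels that follow are scaled over all 16 libraries. CD68 stood at 14.8, 20.02 and 21.2 CPM in control, 17.7 and 16.8 in mock and 36.3, 25.5 and 24.9 in particle libraries at 3 dpi, and its log2 value was 0.38 against 1.47 (SE 0.27) at 1 dpi. The controls lay around the mock libraries, and the particle libraries stood highest. For gpnmb the levels at 3 dpi were 24.7, 24.2 and 39.6 CPM in control, 27.3 and 15.7 in mock and 42.8, 61.7 and 36.3 in particle libraries, with mock no longer above control, and a log2 value of 0.32. The clone-named gene si:dkey-221j11.3 stood at 4.296, 5.704 and 5.29 CPM in control, 2.83 and 2.21 in mock and 7.77, 8.001 and 4.82 in particle libraries at 3 dpi, a log2 value of 0.03. Log2 values at 3 dpi were 0.29 for ctgfa, -0.1 for itga5, 0.2 for fhl2b, -0.21 for myl4, 0.19 for elovl1a and -0.13 for gale, against 0.67, 0.71, 0.95, 0.72, 1.28 and 0.76 at 1 dpi. The liver list had a median of 1.11 at 3 dpi, complement 1.08, wound repair 0.11, heart chambers 0.28 and lysosome 0.08. These medians pool mock and particle libraries, which differed in level. For tfa the means at 3 dpi were 46.3 CPM in control, 54.2 in mock and 200 in particle libraries. For c9 they were 5.95, 13.5 and 32.7 CPM. A rise at 3 dpi shared by both injected groups was therefore not shown for these lists. Acute inflammatory genes had larger values then, 1.77 for il1b and 1.85 for mmp9, but mmp9 ran over 5.12, 4.59 and 12.8 CPM in control, 73.6 and 33.95 in mock and 7.62, 5.94 and 17.6 in particle libraries and il1b over 1.28, 1.12 and 1.63 CPM in control, 1.85 and 14.96 in mock and 1.69, 1.12 and 4.34 in particle libraries, so that the highest values lay in mock libraries and particle C.

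**Figure D5:**
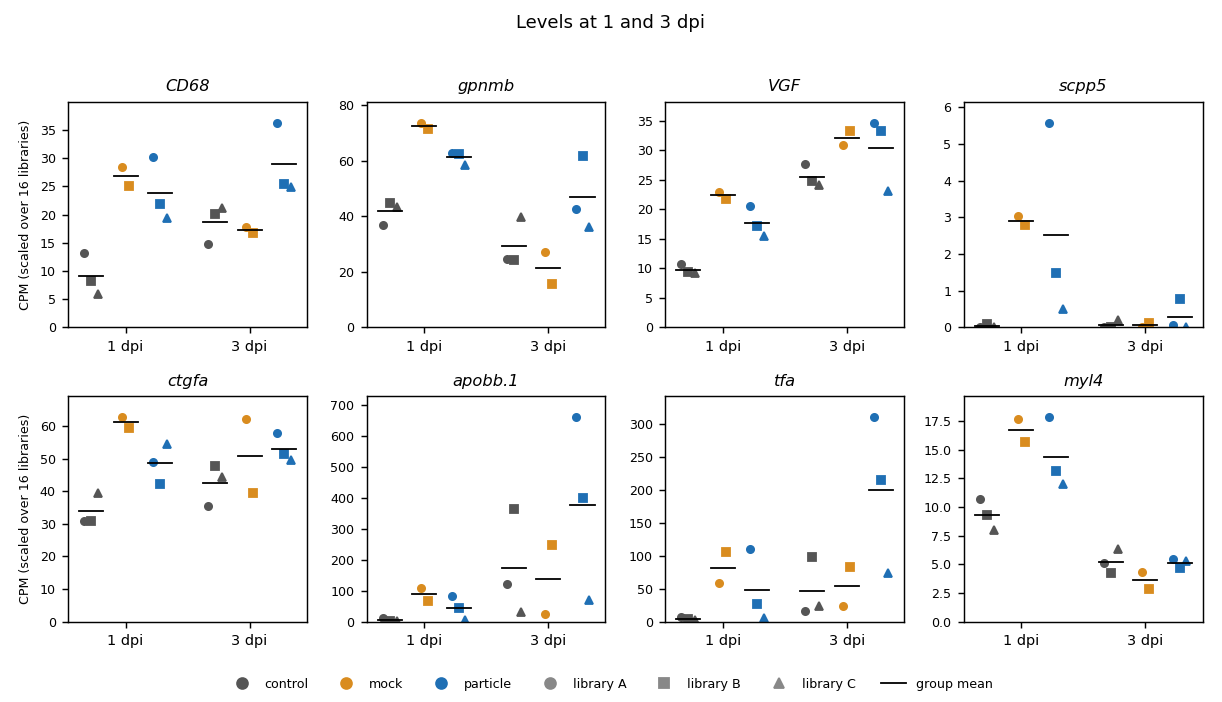
Levels in CPM scaled over 16 libraries (vertical axes, from 0) of 8 genes at 1 and 3 dpi in control, mock and particle embryos; symbols mark library A, B and C, and bars group means. CD68 lies between 5.87 and 13.1 CPM in control and 19.4 and 30.2 in injected libraries at 1 dpi. At 3 dpi its mock libraries lie within the control range and its particle libraries above it.

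The plot of both times shows that scpp5 stood under 1 CPM in all libraries at 3 dpi, that myl4 stood lower at 3 than at 1 dpi in every group, and that apobb.1 and tfa spread over a wider range at 3 dpi than at 1 dpi.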

How the data were processed

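Per the labels' protocols, TRIZOL served to extract total RNA from whole embryos and DNaseI to remove DNA. The submitters' processing notes name Bowtie2, SAMtools, DESeq and the build GRCz10, without versions or settings. The counter, annotation release and use of strand were not stated in them, so overlapping, antisense and near-identical genes cannot be told apart. The deposited column was handled like estimated counts, because the size factor at its foot has decimals, but it holds the authors' whole-number counts per gene, not normalized. The 2 footer lines of each file were dropped, and rounding changed no gene. Of 31388 genes listed 31383 carry a symbol.

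Counts were tested in R 4.3.3 with edgeR 4.0.16 (TMM scaling, filterByExpr with a minimum count of 10 and total of 15, quasi-likelihood tests, two-sided, Benjamini-Hochberg adjustment over all genes, threshold 0.05), on arm alone over 8 libraries; mock and particle as separate groups over the same 8; and 4 arms over 16 libraries for 3 dpi. CPM are TMM-scaled. Figures used python 3.11.15 and matplotlib 3.10.9. The edgeR script was tested on simulated data. Alternatives were RLE factors, DESeq2 1.42.0, limma-voom (limma 3.58.1), other filters and samples, a replicate block, a term for library series and each library left out.

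Members, lists and the rule for named genes were chosen with earlier results of these data known. The rule takes the 12 smallest p among genes with a proper symbol and a mean of at least 1 CPM, and a set of fixed genes. It also takes the 3 lowest p within every list except the added lysosome and heart lists. Genes of these lists that no other part of the rule takes were chosen after their values were seen. Of the list entries, 1089 matched by symbol, 39 by Ensembl and 17 by Entrez identifier and 3 by the identifier with most counts; 14 repeated a gene, 8 were ambiguous and 39 did not match. Titles were followed where the header for particle B (replicate A) and the characteristics of control C (replica 1) differ from them. Between libraries of a group, chi-square per degree of freedom ran from 6.02 to 98.4, so none repeats another. The labels call replicates biological, but not whether embryos came from separate clutches, so p-values measure the spread between these samples.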

Additional observations from a re-analysis of the deposited data

Results flagged for a closer look

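In 18 of 163 sets of values looked at over the 5 injected libraries (127 genes and 36 list sums), a single library stood apart from the other 4, with a gap above 0.71 of the whole range. For 5 independent values from a single normal population such a gap arises in about 1 in 20. These 5 libraries mix groups and library series, and the sets are not independent, so 18 of 163 cannot be measured against that share. Particle C was that library in 14 of them, mock A in 2, and mock B and particle B in 1 each. Particle C stood highest for irg1l (98.9 CPM, others 5.45 to 18.3), egln3 (6.92 CPM), ankrd37 (7.33 CPM), stmn1b (617 CPM), cry2 (14.6 CPM), nusap1 (73.9 CPM) and pcna (214 CPM). It stood lowest for sult2st1 (9.09 CPM), icn (109 CPM) and mt-nd1 (1078 CPM). Its summed levels were 47685 CPM for skeletal muscle, below the others at 93310 to 106504, and above the others for neurons and glia (7922 CPM), cell cycle (2191 CPM) and pigment cells (1491 CPM). Mock A stood highest for ptgs2a (17.4 CPM, others from 9.86) and lowest for rpl21 (404 CPM). Particle B stood highest for mmp9 (10.8 CPM), and mock B lowest for cxcl18b (0.323 CPM). For EGR4 every mock library lay under and every particle library above the controls, and particle minus mock had a log2 value of 2.16, which edgeR did not call and DESeq2 did; the opposite sides against control were not tested as such.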

How the results depend on the processing

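Over 18 other settings and 259 genes, 4556 of 4636 log2 values kept their direction and stayed uncalled, 57 kept it and were called, 23 changed sign and 0 called values were lost, since none was called. Apart from the fixed genes, the 259 were chosen by their values in these libraries, and every setting reuses those libraries. Kept directions are therefore largely set by that choice. DESeq2 called 48 genes higher and 2 lower, the term for library series 3 higher, also with RLE factors, and the term with DESeq2 320 higher and 71 lower; the cause was not tested. Leaving out a library, with and without the term, gave 0 to 188 genes higher and 0 to 26 lower. With the term, 1 was left without mock B, and 188 higher and 26 lower were called without particle B. For mock against control DESeq2 called 67 higher and 5 lower, and leaving out a library gave 0 to 1 each way, si:dkey-247k7.2 higher without control C and si:ch211-114l13.11 lower without control B. For particle against control DESeq2 called 8 and the fit over all 16 libraries 1, npas4a. For particle against mock DESeq2 called 2.

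The replicate block called 16 genes higher between injected and control, among them CD68, VGF, elovl1a, scpp5, ctsba and the 3 genes of the series term, and 115 higher and 9 lower for mock. Same-lettered libraries did not all deviate together: correlations of deviations were 0.59, 0.31 and 0.76 between control and particle A, B and C, 0.22 and 0.04 between control and mock, and 0.09 and -0.08 between mock and particle A and B. The letters are therefore not taken as pairs where mock libraries enter. Between control and particle libraries alone each correlation was above 0.1. The C libraries stood apart in both of these groups, so such correlations can follow from library series and do not show pairing by letter. For particle against control the block called 0 genes, in a fit over all 8 libraries that also held the mock libraries. The block changed no other count of calls by edgeR.

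Log2 values that changed sign in the A and B libraries were 0.076 for egln3, 0.10 for nusap1, 0.027 for pcna and 0.11 for plin2. With all 16 libraries in 6 groups mmp9 stood at -0.037 and hsp70l at -0.00996, and hsp70l stood at -0.0052 with RLE factors, -0.0047 with DESeq2, -0.023 with limma-voom and -0.0068 with limma-voom and the series term. With libraries left out in turn ankrd37 ran from -1.46 to 0.16, ccne2 from -0.59 to 0.22, cyp1a from -0.0067 to 0.80, egln3 from -1.58 to 0.48, hsp70l from -0.22 to 0.35 and mmp9 from -0.22 to 0.17. The ranges were -0.61 to 0.33 for nusap1, -0.30 to 0.12 for pcna, -0.59 to 0.41 for plin2, -0.69 to 0.12 for rgra and -0.56 to 0.0046 for rps25. With the series term and a library left out, values of changed sign were 0.020 for rgra (control B), 0.15 and 0.11 for plin2 (mock A and mock B), -0.11 and -0.21 for mmp9 (control A and particle B) and -0.15 and -0.093 for hsp70l (control A and particle A). For cyp1a they were -0.053, -0.62 and -0.11 (control A, control B and particle A). The series term with another tool, scaling or left-out library, and the lysosome and heart lists, were chosen after seeing the data. Counts of 1 to 3 reads, as in control scpp5, limit what depth can show.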

Other observations

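Further genes of 1 dpi with arms that did not overlap were chosen after their values were seen, and none passed the edgeR test. Genes of cytokine signalling were among them. The transcription factor gene cebpb, which acts in inflammation and in fat cells, stood at 11.3, 7.35 and 4.603 CPM in control, 17.5 and 15.5 in mock and 18.9, 14.3 and 14.1 in particle libraries, and its log2 value was 1.06 (SE 0.27). The receptor genes tnfrsfa, for tumor necrosis factor, and il20ra, for interleukins, had log2 values of 0.66 (SE 0.18) and 0.83 (SE 0.24), and stat4, which passes on cytokine signals, had 0.74 (SE 0.21). The endothelial scavenger receptor gene mrc1a had 0.69 (SE 0.19).

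Other genes with separate arms had varied roles. The S100 gene s100u stood at 24.2, 15.8 and 13.3 CPM in control, 50.6 and 41.7 in mock and 41.02, 35.2 and 25.9 in particle libraries, with a log2 value of 1.13 (SE 0.26), and sorcin, sri, had 0.42 (SE 0.12). The LIM-domain gene fhl1b had 1.05 (SE 0.28). Values for genes of the cell surface and matrix were 0.59 (SE 0.15) for emp2, 0.77 (SE 0.22) for the basement membrane gene nid2a and 0.95 (SE 0.27) for angptl2b. The homeobox gene barx1, which acts in jaw and gut mesenchyme, stood at 2.74, 2.303 and 3.74 CPM in control, 6.59 and 8.88 in mock and 10.3, 4.83 and 5.52 in particle libraries, a log2 value of 1.28 (SE 0.31).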
